A study of Mus musculus with 6 samples.

Results

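The miR-29 family was followed in small RNA libraries of mouse spinal cord, through every row of the deposited miRNA table whose name starts with mmu-miR-29a-, mmu-miR-29b- or mmu-miR-29c-. This rule found 7 of the 1482 rows, 4 of them 5p arms (mmu-miR-29c-5p, mmu-miR-29a-5p, mmu-miR-29b-1-5p and mmu-miR-29b-2-5p) and 3 of them 3p arms (mmu-miR-29a-3p, mmu-miR-29b-3p, mmu-miR-29c-3p). The species prefix mmu is left out from here on. All 7 were among the 614 rows with enough reads to be tested. The study screened RNAs of the contused cord. The 3 mice labelled SCI (spinal cord injury) had a laminectomy at T10 and then a moderate contusion of the cord from a 10 g weight dropped 20 mm, and the 3 mice labelled control had the laminectomy alone. Both groups were killed on day 2 after surgery, and a short stretch of whole cord around T10 was sequenced. The strain, sex and age of the mice are not stated in the labels.

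miR-29 is a small family made from 4 hairpins in the mouse. The 3p arms are its usual guide strands and share 1 seed, the stretch at the 5′ end that selects target mRNAs. Known targets include mRNAs of collagens and other matrix proteins, and the family is described as abundant in astrocytes, rising as the brain matures, and as falling in fibrosis of heart and other organs. The 5p arms are the opposite strands of the same hairpins and are usually treated as passengers.

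The mature sequences are shown because the 3p arms share a seed and are told apart by a few later bases, whereas the 5p arms differ from them and from each other. They are from RefSeq on GRCm38.p6, 5′ to 3′, with the seed (bases 2 to 8) in capitals.
mmu-miR-29a-3p: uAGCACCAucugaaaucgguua
mmu-miR-29b-3p: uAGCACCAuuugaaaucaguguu
mmu-miR-29c-3p: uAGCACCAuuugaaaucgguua
mmu-miR-29a-5p: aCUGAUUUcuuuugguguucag
mmu-miR-29b-1-5p: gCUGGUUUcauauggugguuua
mmu-miR-29b-2-5p: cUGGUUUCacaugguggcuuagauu
mmu-miR-29c-5p: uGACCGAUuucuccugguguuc
The seed AGCACCA was shared by the 3p arms and by no other of the 1679 mature miRNAs in the RefSeq table. Each 5p arm had a seed of its own within the family. Counted from the 5′ end, miR-29c-3p differs from miR-29a-3p by 1 substitution, C10U. miR-29b-3p differs from miR-29a-3p by C10U, G18A, U21G and A22U and is 1 base longer, at 23 bases against 22. How many mismatches the authors allowed in assigning reads is not stated in the labels, so reads may have moved between miR-29a-3p and miR-29c-3p in the deposited counts.

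The hairpins lie in 2 pairs. Mir29a (chr6:31062660-31062747, minus strand) lies 275 bases from Mir29b-1 (chr6:31063023-31063093, minus strand). Mir29b-2 (chr1:195037040-195037120, plus strand) lies 426 bases from Mir29c (chr1:195037547-195037634, plus strand). In GENCODE M21, Mir29b-2 and Mir29c overlap an exon of the noncoding host transcript A330023F24Rik on the same strand, and an exon of Cd46, which encodes a complement regulator, on the other strand. Mir29a overlaps no other annotated gene, and 2 of the 71 bases of Mir29b-1 overlap an exon of the noncoding RNA Gm27019. miR-29b-3p is identical from Mir29b-1 and Mir29b-2, so its reads cannot be split between the loci, whereas the 5p arms tell the loci apart. The hairpins whose arms are compared are printed below with the mature arms in capitals, 5p arm first.
Mir29c: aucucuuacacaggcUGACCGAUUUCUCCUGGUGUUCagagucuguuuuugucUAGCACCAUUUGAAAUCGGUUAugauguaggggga
Mir29a: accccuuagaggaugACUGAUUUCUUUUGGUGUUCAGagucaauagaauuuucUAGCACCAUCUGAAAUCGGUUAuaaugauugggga

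Total counts were 7100472 to 8889977 in the SCI-labelled and 5568491 to 7360149 in the control-labelled libraries. Markers of injury ran against the labels. miR-21a-5p, known to rise in injured tissue, averaged 12003 ± 774 CPM in SCI-labelled and 100083 ± 27262 CPM in control-labelled libraries (SD, n = 3 each). At an edgeR adjusted p under 0.05, 6 of 6 leukocyte and 4 of 4 red blood cell miRNAs were lower in the SCI-labelled group. At the same threshold 23.1% of the 614 tested rows were lower. The table's columns for the SCI-labelled libraries have names that begin with Normal. The groups are therefore called by their labels, and every direction is that of the labels as deposited. Control-labelled library 3 stood apart from the others of its group, and values without it are given beside the results. Skeletal muscle miRNAs took 1.97% to 3.67% of counts in the SCI-labelled libraries, against 8.43% in control-labelled library 3 and 1.55% and 2.34% in control-labelled libraries 1 and 2. In these sums miR-1a-3p and miR-1b-5p have near-equal counts and may be the same reads.

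miR-29a-3p was the main form in every library. Levels are reads per 1e6 (CPM) after scaling by TMM, which corrects for differences in library composition; a read covers a whole mature miRNA, so levels were not divided by length. Means of the family spanned a wide range in both groups, in the order miR-29a-3p, miR-29b-3p, miR-29c-5p, miR-29c-3p, miR-29a-5p, miR-29b-2-5p and miR-29b-1-5p. In the SCI-labelled libraries the neighbours in this order did not overlap. In the control-labelled libraries the levels overlapped between miR-29c-5p and miR-29c-3p, between miR-29a-5p and miR-29b-2-5p, and between miR-29b-2-5p and miR-29b-1-5p. Small RNA ligation favours some sequences over others, which was not measured here, so the order is that of reads.

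**Figure D1:**
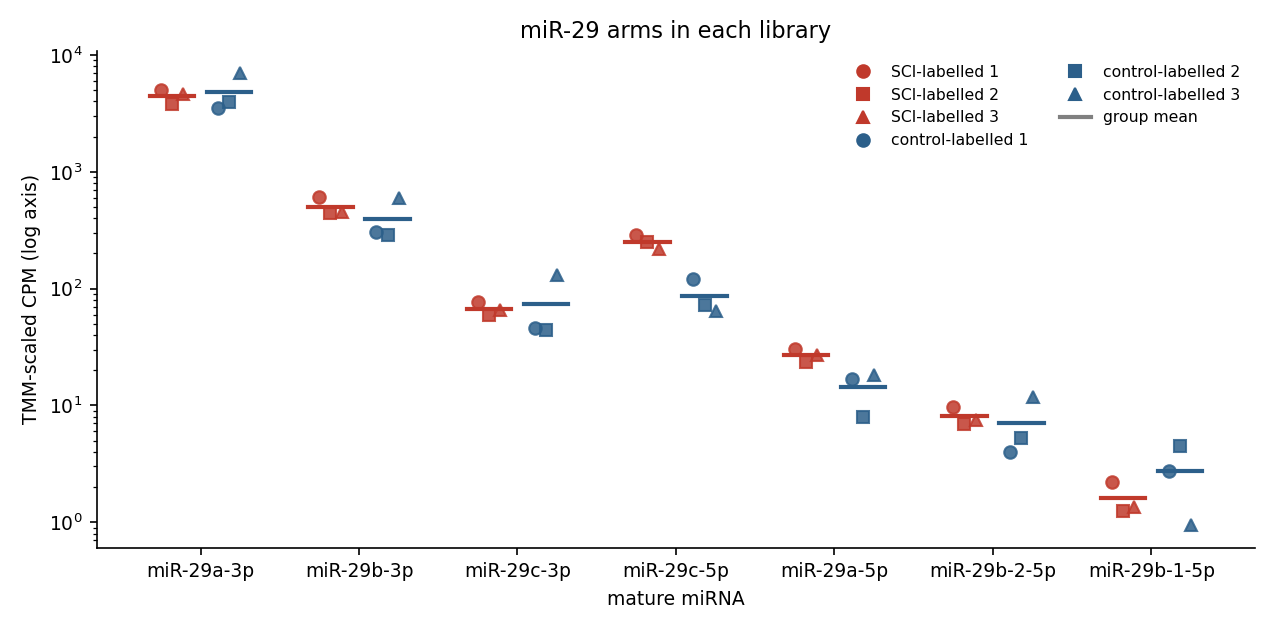
TMM-scaled CPM (log axis) of the 7 miR-29 arms in each library, SCI-labelled in red and control-labelled in blue, with symbols for libraries 1 to 3 and bars for group means. miR-29c-5p and miR-29a-5p are the arms whose SCI-labelled libraries all lie above the control-labelled ones, and control-labelled library 3 (blue triangle) is the highest of its group in all 3 3p arms.

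Of the 7 arms, miR-29c-5p changed. It stood at 285, 253 and 220 CPM in SCI-labelled libraries 1, 2 and 3, against 121, 71.9 and 64.3 CPM in control-labelled libraries 1, 2 and 3. The groups did not overlap, and the lowest SCI-labelled library was well above the highest control-labelled one. The raw counts behind these levels were 2300, 1630 and 1939 in the SCI-labelled libraries and 756, 397 and 546 in the control-labelled libraries. The level was 2.95-fold higher in the SCI-labelled libraries (log2 1.56, SE 0.28; edgeR quasi-likelihood adjusted p = 0.00307). The call held under all 15 alternatives, including without each library in turn, where the log2 change ran from 1.42 to 1.96 and the adjusted p did not exceed 0.0157.

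That 1 of 7 arms was called higher is close to the background of this comparison, in which 39.4% of the 614 tested rows were called and 16.3% were called higher. DESeq2 and limma voom each called 2 of the 7, miR-29c-5p and miR-29a-5p, and called 40.2% and 46.6% of all rows; 2 of 7 had an unadjusted edgeR p under 0.05, as had 46.4% of all rows. The count depended on control-labelled library 3. Without it, 5 arms were called higher and 1 lower, and 24% of 634 tested rows were called higher and 28.2% lower. The family's median log2 change was 0.17, against -0.07 over all tested rows. Groups did not overlap for 2 of the 7 arms, both with the SCI-labelled libraries above, against 51.3% of all tested rows in either direction and 23.3% with the SCI-labelled libraries above.

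miR-29a-5p, the passenger of the family's most abundant hairpin, was at the edge of the threshold. It stood at 30.1, 23.4 and 27.0 CPM in SCI-labelled libraries 1, 2 and 3, against 16.8, 7.97 and 18.3 CPM in control-labelled libraries 1, 2 and 3. The groups did not overlap, and control-labelled library 2 was the lowest, with 44 reads. The log2 change was 0.89 (SE 0.31; edgeR adjusted p = 0.0501, which misses 0.05). It passed in 8 of 15 alternatives, among them DESeq2 (adjusted p = 0.0174) and the fits without control-labelled library 1 (0.0466) or 3 (0.00709).

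The 3p arms, the guide strands, did not pass the test with all 6 libraries. miR-29a-3p stood at 5049, 3821 and 4610 CPM in SCI-labelled libraries 1, 2 and 3, against 3519, 3953 and 6963 CPM in control-labelled libraries 1, 2 and 3. The SCI-labelled libraries lay inside the range of the control-labelled ones, whose library 3 was the highest of all 6. The log2 change was -0.10 (SE 0.27; edgeR adjusted p = 0.783), and it was 0.31 without control-labelled library 3 (0.171).

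miR-29b-3p, the form made from both loci, stood at 612, 445 and 456 CPM in SCI-labelled libraries 1, 2 and 3, against 306, 286 and 600 CPM in control-labelled libraries 1, 2 and 3. Control-labelled library 3 was level with the highest SCI-labelled library, and the others of its group were below all of them. The log2 change was 0.34 (SE 0.31; edgeR adjusted p = 0.419). Without control-labelled library 3 it was 0.81 and passed the test (0.00599).

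miR-29c-3p, the guide opposite miR-29c-5p, stood at 76.1, 59.1 and 65.5 CPM in SCI-labelled libraries 1, 2 and 3, against 46.3, 43.8 and 130 CPM in control-labelled libraries 1, 2 and 3. Control-labelled libraries 1 and 2 were the lowest of the 6 and control-labelled library 3 the highest. The log2 change was -0.14 (SE 0.41; edgeR adjusted p = 0.801). Without control-labelled library 3 it turned to 0.61 and passed the test (0.0267). With the reads of miR-29a-3p and miR-29c-3p summed to 1 row, an alternative added after seeing the data, the log2 change was -0.10 (0.779).

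The 5p arms of the miR-29b hairpins were the rarest. miR-29b-2-5p had 78, 45 and 66 reads in SCI-labelled libraries 1, 2 and 3, and 25, 29 and 101 reads in control-labelled libraries 1, 2 and 3. Its log2 change was 0.17 (SE 0.40; edgeR adjusted p = 0.765), and it was 0.85 without control-labelled library 3 (0.0255). In CPM it was highest in control-labelled library 3 and lowest in the others of that group. miR-29b-1-5p had 18, 8 and 12 reads in SCI-labelled libraries 1, 2 and 3, and 17, 25 and 8 reads in control-labelled libraries 1, 2 and 3. Its log2 change was -0.69 (SE 0.56; edgeR adjusted p = 0.359), and it was -1.09 without control-labelled library 3 (0.0363).

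**Figure D2:**
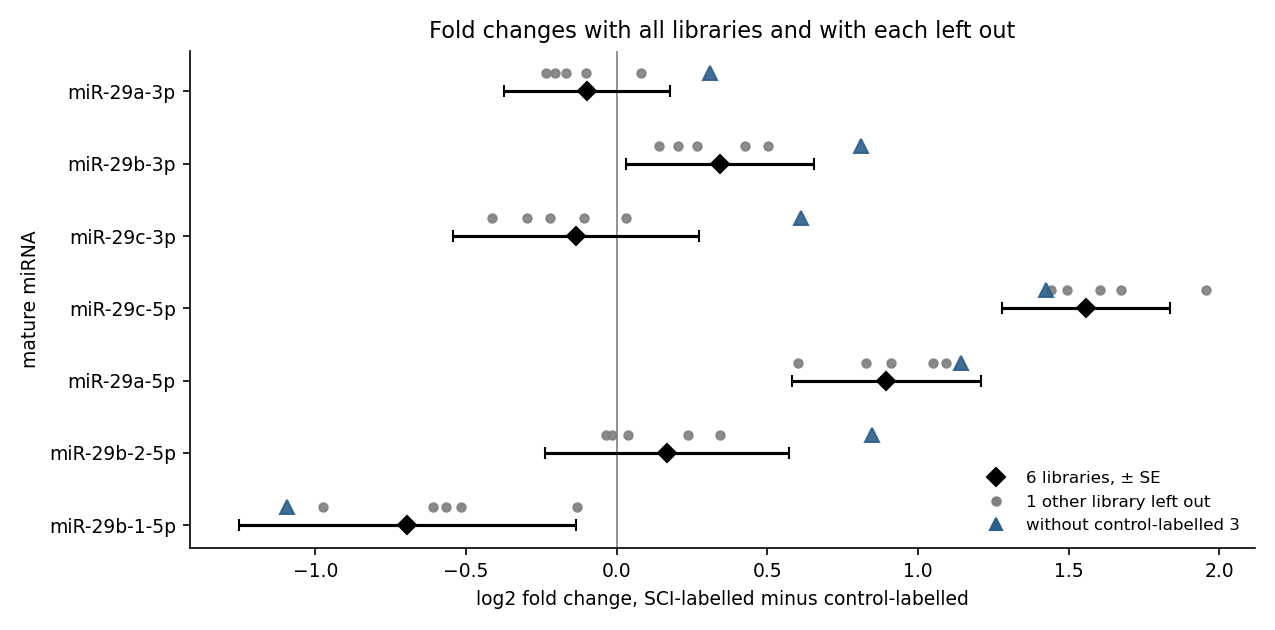
Log2 fold change of each miR-29 arm, SCI-labelled minus control-labelled, from edgeR with all 6 libraries (diamond, bar = SE) and with 1 library left out (grey points, or blue triangle for control-labelled library 3). miR-29c-5p stays between 1.42 and 1.96, whereas the 3p arms and miR-29b-2-5p move furthest when control-labelled library 3 is left out.

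The arms of a hairpin were then compared within each library, where the ratio does not depend on scaling between libraries. In miR-29c the 5p arm, the presumed passenger, outnumbered the reads assigned to the 3p arm in 5 of 6 libraries. Those 3p reads may include or lack some moved from or to miR-29a-3p, which differs by 1 base. There were 0.0111 to 0.0186 reads of miR-29c-3p per read of miR-29a-3p over the libraries. The effect of moved reads on the shares and ratios of miR-29c was not tested. The 5p arm took 78.9%, 81.1% and 77.0% of miR-29c reads in SCI-labelled libraries 1, 2 and 3, against 72.3%, 62.1% and 33.1% in control-labelled libraries 1, 2 and 3. The SCI-labelled libraries were close together and above every control-labelled one, and control-labelled library 3 was the library with more 3p than 5p reads. The 95% exact binomial interval of a share was widest, relative to the share, in that library, at 30.9% to 35.5%; intervals cover counting error only.

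The 5p over 3p ratio of miR-29c averaged 1.92 ± 0.18 in SCI-labelled and 0.36 ± 1.24 in control-labelled libraries on the log2 scale (SD, n = 3 each). The difference of 1.55, or 2.93-fold, passed edgeR's diffSpliceDGE test (adjusted p = 0.0191 over 179 hairpins). Of those hairpins 30.2% were called in either direction, and 16.2% were called with a higher 5p share in the SCI-labelled libraries; the median difference over all of them was 0.04. The difference was 0.87 without control-labelled library 3 (adjusted p = 0.0389). The call was lost without SCI-labelled library 1 (0.0736), 2 (0.0897) or 3 (0.0733) and by limma on the log2 ratios (0.0890).

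In miR-29a the 5p arm was a small minority. There were 0.00596, 0.00613 and 0.00585 5p reads per 3p read in SCI-labelled libraries 1, 2 and 3, against 0.00478, 0.00202 and 0.00262 in control-labelled libraries 1, 2 and 3. The SCI-labelled libraries were nearly equal and above every control-labelled one. The log2 ratio differed by 1.02 (adjusted p = 0.0330 by diffSpliceDGE), a call lost without control-labelled library 2 (0.0687), without SCI-labelled library 1 (0.106), 2 (0.0897) or 3 (0.120) and by limma on the log2 ratios (0.0810). Arm ratios of the groups did not overlap in 41.3% of the 179 hairpins, as here in both. For miR-29b-2, whose 3p arm is shared with miR-29b-1, there were 0.0158, 0.0157 and 0.0164 5p reads per miR-29b-3p read in SCI-labelled libraries 1, 2 and 3, and 0.0131, 0.0184 and 0.0198 in control-labelled libraries 1, 2 and 3, so the groups overlapped.

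**Figure D3:**
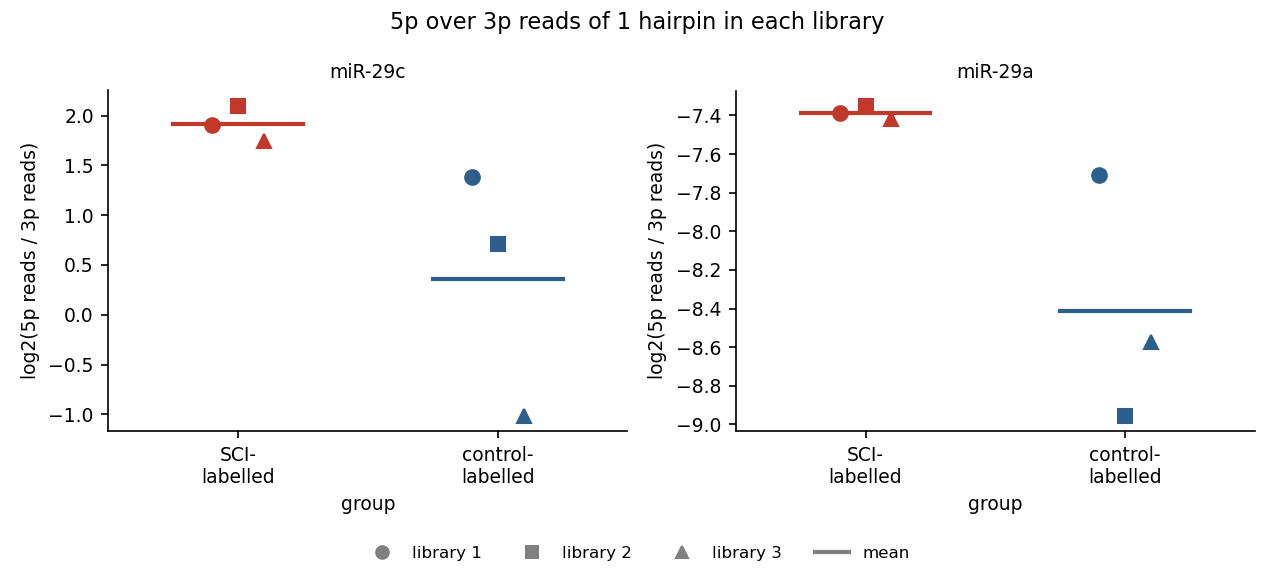
Log2 ratio of 5p to 3p reads for miR-29c (left) and miR-29a (right) in each library, SCI-labelled in red and control-labelled in blue, with bars for group means. In both hairpins the SCI-labelled libraries lie close together and above all control-labelled ones, with control-labelled library 3 lowest for miR-29c and library 2 lowest for miR-29a; each panel has its own axis range.

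The 3p arms were also compared with each other. There were 0.121, 0.117 and 0.0988 reads of miR-29b-3p per read of miR-29a-3p in SCI-labelled libraries 1, 2 and 3, against 0.0868, 0.0723 and 0.0862 in control-labelled libraries 1, 2 and 3. The ratio was higher in every SCI-labelled library, by 0.46 on the log2 scale (exact permutation p = 0.1, the smallest possible with 3 against 3; 0.133 adjusted over 4 ratios). miR-29c-3p over miR-29b-3p was lower in every SCI-labelled library, at 0.124, 0.133 and 0.144 in SCI-labelled libraries 1, 2 and 3 against 0.151, 0.153 and 0.216 in control-labelled libraries 1, 2 and 3 (log2 difference -0.36; exact permutation p = 0.1, adjusted 0.133). Without control-labelled library 3 this difference was -0.19 (exact permutation p = 0.2). miR-29c-3p over miR-29a-3p overlapped between the groups, at 0.0142 to 0.0155 in the SCI-labelled and 0.0111 to 0.0186 in the control-labelled libraries (log2 difference 0.09; exact permutation p = 0.7). Without control-labelled library 3 it was 0.30 (exact permutation p = 0.1, the smallest possible with 3 against 2). The ratio of miR-29c-5p to miR-29c-3p, the remaining one of the 4, had an exact permutation p of 0.1 (adjusted 0.133). The tests were two-sided, and none could pass a threshold of 0.05 in this design.

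**Figure D4:**
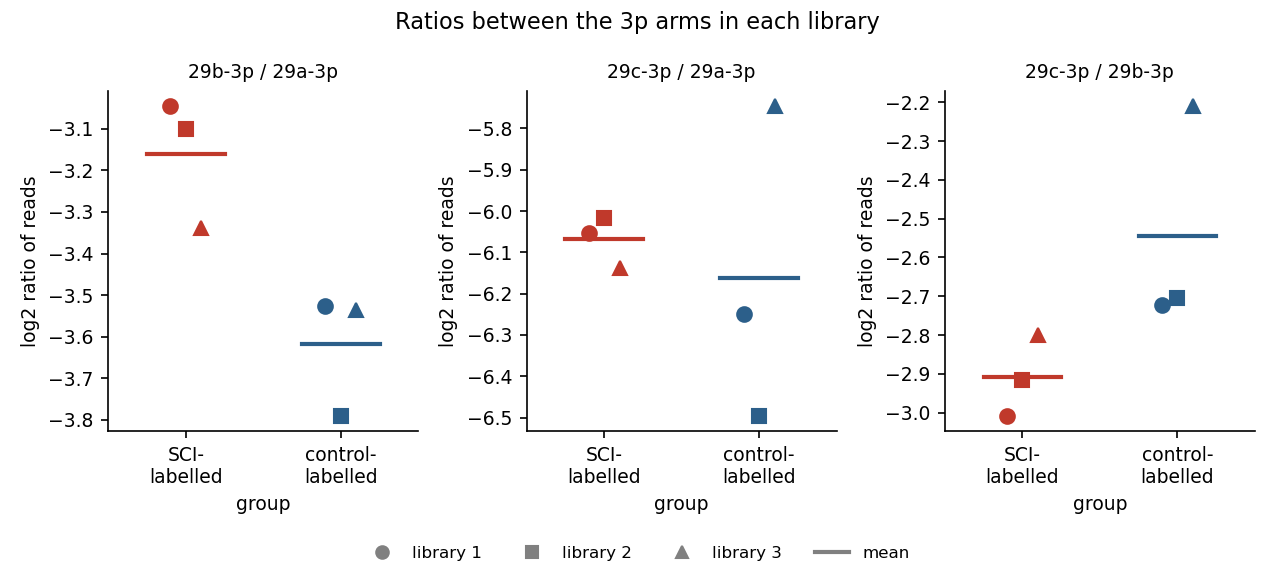
Log2 ratios of reads between the 3p arms in each library, SCI-labelled in red and control-labelled in blue, with bars for group means and an axis range for each panel. miR-29b-3p over miR-29a-3p is higher in all SCI-labelled libraries, miR-29c-3p over miR-29b-3p is lower in all of them, and the middle ratio overlaps.

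Together the 7 arms took 0.619%, 0.419% and 0.535% of counts in SCI-labelled libraries 1, 2 and 3, against 0.380%, 0.434% and 0.899% in control-labelled libraries 1, 2 and 3. Control-labelled library 3 had the highest share and control-labelled library 1 the lowest, so the groups overlapped. The mean share was lower by 0.046 percentage points in the SCI-labelled libraries (exact two-sided permutation p = 0.9). Without control-labelled library 3 it was higher by 0.12 percentage points (exact permutation p = 0.3), and it was higher by 0.0063 percentage points without SCI-labelled library 2 (exact permutation p = 1), so the sign turned in both cases. Within the family, miR-29a-3p made up 83.9% ± 1.46 of reads in SCI-labelled and 89.2% ± 1.40 in control-labelled libraries, and miR-29c-5p 4.75% ± 0.70 and 1.83% ± 1.11 (SD, n = 3 each). These are whole-tissue libraries, in which fewer cells of a type and less RNA per cell cannot be told apart.

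Control-labelled library 3 held more of most miR-29 arms than the others of its group. Its log2 ratio over the mean of control-labelled libraries 1 and 2 was 1.52 for miR-29c-3p, 1.27 for miR-29b-2-5p, 1.02 for miR-29b-3p, 0.90 for miR-29a-3p and 0.54 for miR-29a-5p. It was -0.58 for miR-29c-5p and -1.52 for miR-29b-1-5p, against a median of -0.05 over the 614 tested rows. miR-29c-3p stood 17th from the top of those rows. In the same library the skeletal muscle list had a median ratio of 2.54, with miR-133a-3p, a miRNA of striated muscle, first at 3.39 and 8 of 10 listed members tested. The other 2, miR-1b-3p and miR-208b-3p, had at most 9 reads in a library. miR-208b-3p, of slow muscle, was at 0 in SCI-labelled libraries 1 and 3, and both were at 0 in control-labelled library 2. Other miRNAs departed in that library too. The oligodendrocyte miRNA miR-219a-5p was at 2.17 and the neuronal miR-124-3p at 1.53, next to miR-29c-3p. Members of these lists did not share 1 direction. The other oligodendrocyte miRNAs were miR-338-3p (0.32) and miR-219a-2-3p (-0.46). The other neuron miRNAs ran from -0.32 (miR-128-3p) and -0.26 (miR-129-5p) to 0.73 (miR-138-5p) and 1.45 (miR-137-3p). The endothelial miR-126a-3p was at -1.06 and miR-126a-5p at 0.72. The list medians were 0.32 for oligodendrocytes, 0.29 for neurons and 0.04 for miRNAs outside the family put on an astrocyte list. They were -0.0025 for matrix and fibrosis miRNAs, -0.17 for endothelium, -0.46 for leukocytes and -0.85 for red blood cells. The part of muscle or other RNA in the miR-29 levels was not tested. With the muscle list left out before scaling, each arm kept its direction and its side of the threshold.

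**Figure D5:**
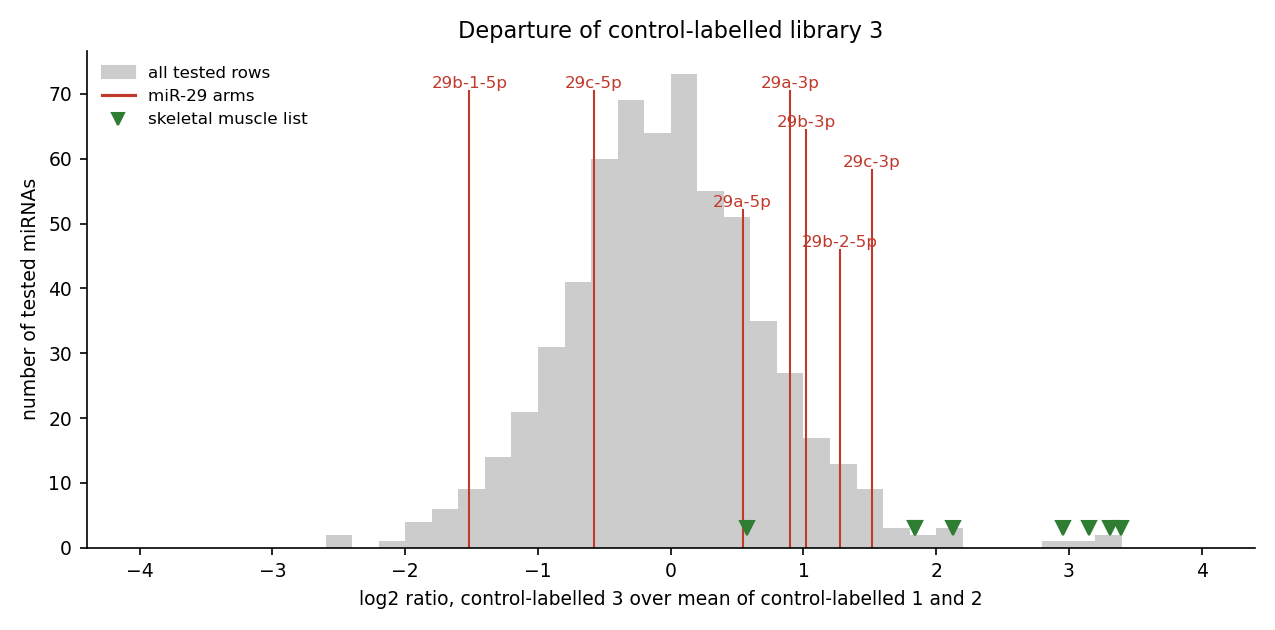
Histogram of the log2 ratio of control-labelled library 3 over the mean of control-labelled libraries 1 and 2 for the 614 tested miRNAs, with red lines for the miR-29 arms and green marks for the skeletal muscle list. The 3p arms and miR-29b-2-5p lie on the right, at 0.90 to 1.52, miR-29c-5p and miR-29b-1-5p on the left, and the muscle miRNAs mostly further right.

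miRNAs tied to the same biology were taken as lists and read against all tested rows. Of 12 miRNAs of matrix and fibrosis, all tested, 8 were lower in the SCI-labelled libraries, 0 were higher and 4 did not pass (DESeq2 called 9 and limma voom 10; edgeR had 10 at an unadjusted p under 0.05). Over all rows edgeR called 23.1% lower, and DESeq2, limma voom and the unadjusted p passed 40.2%, 46.6% and 46.4% in either direction. Of the 12, 9 were lower and 2 higher without control-labelled library 3, a fit in which 28.2% of 634 tested rows were lower and 24% higher. With all libraries their median log2 change was -1.30. The list shares miR-133a-3p with the skeletal muscle list, so the counts and medians of the lists are not independent. The matrix list was not split into miRNAs that promote and that limit fibrosis, so its count and median give no direction for matrix. Besides miR-21a-5p (log2 -3.06), described as promoting fibrosis, miR-30a-5p fell to 18062 CPM in SCI-labelled libraries, against 35867 CPM in control-labelled libraries (edgeR adjusted p = 0.00167), and miR-26a-5p did not pass (log2 0.14). Of 9 miRNAs outside the family put on an astrocyte list, 2 were higher, 2 lower and 5 did not pass. The share called was close to the 39.4% over all rows, and the median log2 change was 0.05. That median was the value of miR-143-3p. These are whole-tissue levels, and whether miR-143-3p or any other listed miRNA is particular to astrocytes in cord was not tested. Of the 9, 3 were higher and 2 lower without control-labelled library 3, against the same 24% and 28.2% of all rows. miR-9-5p, a miRNA of neural progenitors and glia, was higher (log2 0.58, edgeR adjusted p = 0.0455). The other arm, miR-9-3p, had the opposite sign and did not pass (log2 -0.46, edgeR adjusted p = 0.150). miR-143-3p (0.05) and miR-181a-5p (0.07) did not pass either. The other members called, named after their values were seen, were miR-204-5p (1.29), miR-23a-3p (-1.86) and miR-26b-5p (-0.62).

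Of 7 neuron miRNAs 3 were higher and 4 did not pass, against 16.3% called higher over all rows. The 3 were miR-218-5p (log2 1.42), miR-128-3p (1.46) and miR-129-5p (1.26). Those that did not pass were miR-137-3p (0.79), miR-138-5p (0.61), miR-132-3p (-0.09) and miR-124-3p (-0.52), so the list did not share 1 direction. limma voom called 5 of the 7, against 46.6% of all rows in either direction. edgeR called 5 higher without control-labelled library 3. In the fit without that library 24% of 634 tested rows were called higher and 28.2% lower. Of 8 skeletal muscle miRNAs 1 was higher, miR-499-5p (0.81, named after its values were seen), and 4 were higher without control-labelled library 3. With all libraries miR-1a-3p and miR-1b-5p (-0.32 each) and miR-133a-3p (-0.83) did not pass. Of 3 oligodendrocyte and 2 endothelial miRNAs, edgeR, DESeq2 and limma voom each called 0, with 0 by edgeR at a p under 0.05 before adjustment. Over all rows edgeR, DESeq2 and limma voom called 39.4%, 40.2% and 46.6%, and the unadjusted edgeR p passed 46.4%. Without control-labelled library 3 edgeR called 1 oligodendrocyte miRNA higher and 1 endothelial miRNA lower. miR-219a-2-3p, of oligodendrocytes, averaged 9228 CPM in SCI-labelled and 8765 CPM in control-labelled libraries, and the endothelial miR-126a-3p 16974 and 20280 CPM. miR-338-3p (log2 0.26), miR-219a-5p (-0.55) and miR-126a-5p (-0.45) complete these lists. The leukocyte list had a median log2 change of -3.29, with miR-142a-5p (-3.88), miR-142a-3p (-2.83) and miR-150-5p (-0.63) its most abundant members. The red blood cell list had a median of -3.01, with miR-451a (-2.56), miR-486a-5p (-3.57) and miR-144-5p (-3.36) the most abundant.

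The miRNAs closest in pattern to each arm were taken as those with the smallest root-mean-square difference in log2 CPM over the 6 libraries, each miRNA centred on its own mean, among 265 miRNAs outside the family with at least 50 CPM. For miR-29c-5p they were miR-495-3p (0.14), miR-330-5p (0.21) and miR-434-5p (0.22), against a median difference of 0.87 over the candidates. Each was higher in the SCI-labelled libraries. Being chosen for likeness over these same libraries, they share its direction and small difference by that choice. For miR-29a-3p they were miR-410-3p (0.05), miR-125b-2-3p (0.17) and miR-34c-5p (0.18). miR-369-3p was the closest to miR-29b-3p (0.09), miR-29b-2-5p (0.10) and miR-29c-3p (0.20). The next for miR-29b-3p were miR-384-5p (0.12) and miR-151-5p (0.13), for miR-29c-3p miR-124-3p (0.22) and miR-151-5p (0.25), and for miR-29b-2-5p miR-300-3p (0.17) and miR-341-3p (0.20). miR-29a-5p was closest to miR-1298-3p (0.22), miR-598-3p and miR-490-3p (0.25 each), and miR-29b-1-5p to miR-423-5p (0.26), let-7f-5p (0.40) and miR-30d-5p (0.41).

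Within the family the same measure grouped the 3p arms with miR-29b-2-5p, at 0.17 to 0.26 for every pairing among these 4. miR-29c-5p lay 1.06 from miR-29c-3p, the other arm of its own hairpin, and 0.52 from miR-29a-5p. miR-29b-1-5p lay far from every other arm, at 0.84 to 1.16. It lay 0.84 from miR-29a-3p and 1.12 from miR-29a-5p, the arms of its neighbour in the chromosome 6 cluster. miR-29b-1-5p had 8 to 25 reads a library, and the part of counting noise in its distances was not tested.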

How the data were processed

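Small RNA libraries were made from 3 µg of total RNA per cord with a NEBNext kit, per the labels' protocols. The authors deposited 1 table with raw read counts and TPM for 6 libraries. The TPM values equal CPM of the deposited counts, with no length term. Bowtie and mm10 are named in the submitters' processing notes; the miRBase release and the handling of multi-matching reads are not stated there. Each library is taken as 1 mouse, and on that reading p-values measure the spread between mice and their libraries.

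The count tests used edgeR 4.0.16 under R 4.3.3. Rows were kept by filterByExpr (minimum count 10) and scaled by TMM. The robust quasi-likelihood F test had group as its term, with Benjamini-Hochberg adjustment over 614 rows at 0.05. SE is the absolute log2 fold change divided by the root of F. Arm usage was tested by diffSpliceDGE on hairpins with both arms kept; ratios had a pseudocount of 0.5 where averaged. Shares and ratios were tested by exact permutation. Sequences and hairpin positions are RefSeq's on GRCm38.p6, the assembly that mm10 denotes; all 7 arms matched by name. Alternatives covered scaling, filter, DESeq2 1.42.0, limma 3.58.1 (voom, and log2(TPM + 1)), the replicate block, the muscle list and each library left out. Both edgeR tests were run on simulated data first. The members, lists and tests were chosen with earlier results of these data known. Named miRNAs are all 7 arms, the 3 tested miRNAs of each list with the highest mean CPM, and the 3 miRNAs closest in pattern to each arm. Others (miR-9-3p, miR-132-3p, miR-137-3p, miR-138-5p, miR-204-5p, miR-23a-3p, miR-26b-5p, miR-499-5p, and the untested miR-1b-3p and miR-208b-3p) were named after their values were seen.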

Additional observations from a re-analysis of the deposited data

How the results depend on the processing

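miR-29c-5p kept its direction and its call in all 15 alternatives. miR-29a-5p, just short of the threshold, passed it with RLE scaling (log2 0.93), upper quartile scaling (1.04), no filter (0.92), DESeq2 (0.93), limma voom (1.09) and the replicate block (0.97). miR-29a-3p changed sign with the upper quartile (0.036) and voom (0.17), and miR-29c-3p with the upper quartile (0.015), voom (0.37) and the replicate block (0.056), without passing the test; the cause was not tested. The replicate block changed no other call of a miR-29 arm or hairpin. Replicate numbers pair nothing in the labels, and deviations of same-numbered libraries correlated at -0.27, 0.19 and -0.18. These numbers are those of the labels, and the columns of the control-labelled libraries carry other numbers. Pairing by column number was not tested.

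With 1 library left out, log2 changes ran from -0.24 to 0.31 for miR-29a-3p, 0.60 to 1.14 for miR-29a-5p, -1.09 to -0.13 for miR-29b-1-5p, -0.034 to 0.85 for miR-29b-2-5p, 0.14 to 0.81 for miR-29b-3p and -0.41 to 0.61 for miR-29c-3p. Rows called ran from 54 to 152 higher, against 100 with all libraries, and from 87 to 179 lower, against 142. Counts of higher rows moved most without control-labelled library 3 (152), SCI-labelled library 1 (63) and SCI-labelled library 3 (54, with 87 lower). The arm difference ran from 0.75 to 1.37 for miR-29a and from 0.87 to 2.06 for miR-29c, the family share from -0.14 to 0.12 percentage points, and the log2 ratio of miR-29c-3p to miR-29a-3p from -0.071 to 0.30. Hairpins called for arm usage ran from 29 to 71, against 54, and were 29, 33 and 30 without SCI-labelled libraries 1, 2 and 3. By limma on the log2 arm ratios 27 hairpins were called, and miR-29a (1.02) and miR-29c (1.55) were not. The call of miR-29a (1.02) was also lost with no filter. miR-29b-1-5p had 8 to 25 reads a library; how far depth limits its test was not measured. Counts of list members without control-labelled library 3 were added after seeing the data.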

Other observations

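The 5p arms that tell the miR-29b loci apart had 4.33, 5.63 and 5.50 reads of miR-29b-2-5p per read of miR-29b-1-5p in SCI-labelled libraries 1, 2 and 3, against 1.47, 1.16 and 12.6 in control-labelled libraries 1, 2 and 3. The SCI-labelled libraries lay between control-labelled libraries 1 and 2 on 1 side and control-labelled library 3 on the other. This ratio was looked at after the counts were seen, rests on as few as 8 reads, and was not tested between groups.

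The 5p arms of the chromosome 1 hairpins did not keep 1 proportion across libraries. There were 29.5, 36.2 and 29.4 reads of miR-29c-5p per read of miR-29b-2-5p in SCI-labelled libraries 1, 2 and 3, against 30.2, 13.7 and 5.41 in control-labelled libraries 1, 2 and 3. Control-labelled library 1 was level with the SCI-labelled libraries and control-labelled library 3 was the lowest. This ratio, too, was chosen after its values were seen and was not tested.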
